A study of Mus musculus with 12 samples.

Results

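The comparison is between 3 Kit+ K5+ libraries and 3 Kit- K5+ libraries of mouse submandibular gland epithelium, 6 of the 12 libraries in the series. They were chosen by their sort labels and are set side by side by run of library numbers, libraries 1 to 4, 5 to 8 and 9 to 12, each run holding 1 library of every population. All embryos were of the K5-Venus line Tg(KRT5-Venus)1Sgkd at embryonic day 15, and in this line a fluorescent protein reports activity of a keratin 5 promoter. Cells of every population were sorted as positive for E-cadherin, Kit+ K5+ cells as positive for both Kit and Venus, and Kit- K5+ cells as positive for Venus and negative for Kit. The remaining 6 libraries were Kit+ K5- and Kit- K5- cells, 3 of each, and enter the same fit, where they bear on the filter for low counts and on the spread, and show where the Kit difference varied with the K5 sort. How many embryos or litters a library holds is unknown here, so p-values measure the spread between these samples, which may be partly technical.

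Kit is the receptor tyrosine kinase for stem cell factor, and in the embryonic salivary gland it is best known from the epithelium of the end buds, where the future secretory units form. Keratin 5, with its partner keratin 14 and the transcription factor p63, is known from basal cells, which lie on the basement membrane in ducts and buds and later include the contractile myoepithelial cells. In the sorted K5+ epithelium, Kit thus divides cells that all reported keratin 5 promoter activity.

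The 6 libraries held 5589037 to 11391186 counts, and mitochondrial counts were 23.7% ± 6.60 of the Kit+ K5+ total and 28.0% ± 3.32 of the Kit- K5+ total (SD, n = 3 each). Levels below are in CPM, counts relative to library size after scaling by trimmed mean of M-values (TMM). Olfactory, vomeronasal and trace amine receptor genes, which salivary epithelium is not known to use, summed to 86.2, 86.2 and 93.4 CPM in Kit+ K5+ libraries, against 578, 177 and 969.5 CPM in Kit- K5+ libraries. Thinned to 5589037 counts each, Kit+ K5+ libraries showed 21106, 20562 and 19516 genes and Kit- K5+ libraries 25567, 21614 and 27406. The receptor sums and the numbers of genes detected were thus higher in all 3 Kit- K5+ libraries. Low-level counts of this kind are called stray signal below, and their origin was not tested. Genes called lower in Kit+ K5+ cells at a few CPM stand beside them. When the signal expected from exonic length was subtracted, edgeR still called 48 genes higher and 45 lower in Kit+ K5+ cells.

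The sorted receptor separated the groups. Kit (chromosome 5, 75574916 to 75656722, GRCm38) had 335, 303 and 319 CPM in Kit+ K5+ libraries, against 15.3, 26.4 and 25.6 CPM in Kit- K5+ libraries. The 2 groups lay far apart with no overlap, and Kit was higher by log2 3.83 ± 0.31 (SE, adjusted p = 1.18e-04, and 1.501e-04 with the run as a block). Krt5, the mouse gene of keratin 5, had 1.57, 9.93 and 4.26 CPM in Kit+ K5+ libraries, against 22.9, 13.5 and 20.3 CPM in Kit- K5+ libraries. All 3 Kit+ K5+ libraries were below all 3 Kit- K5+ libraries, but the difference of log2 -1.84 ± 0.84 did not pass (adjusted p = 0.261, and 0.0670 with the run as a block). In the K5- sorts Krt5 had 0.317, 4.63 and 2.33 CPM in Kit+ K5- libraries and 0.853, 4.597 and 7.15 CPM in Kit- K5- libraries. The Kit+ K5+ libraries overlapped both K5- groups, so the level of Krt5 mRNA did not set them apart from cells sorted as K5-, while all 3 Kit- K5+ libraries lay above every K5- library. Krt14, its partner keratin, had 13.9, 66.04 and 39.8 CPM in Kit+ K5+ libraries, against 133, 83.9 and 54.3 CPM in Kit- K5+ libraries (adjusted p = 0.415). Trp63, which encodes p63, had 75.4, 279.8 and 314 CPM in Kit+ K5+ libraries, against 460.4, 488 and 299.8 CPM in Kit- K5+ libraries (adjusted p = 0.564), and for both genes the groups overlapped. Cdh1, which encodes the E-cadherin of the sort, had 1111, 758 and 530.2 CPM in Kit+ K5+ libraries, against 657, 575 and 529.7 CPM in Kit- K5+ libraries and did not pass either (adjusted p = 0.401). Epithelial Cdh1 was thus abundant in both groups.

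Beside Kit, 2 transcription factors marked the Kit+ side and a secreted binding protein marked the Kit- side. Pou2f3 (chromosome 9, 43123939 to 43210369), a POU factor required for tuft cells, the chemosensory cells of several epithelia, had 202, 109 and 75.1 CPM in Kit+ K5+ libraries, against 10.002, 10.4 and 1.53 CPM in Kit- K5+ libraries. It was higher in each run, by log2 4.10 ± 0.61 (SE, adjusted p = 0.0182, and 2.35e-04 with the run as a block). Myb (chromosome 10, 21124935 to 21160984), a transcription factor of proliferating progenitors, had 309.7, 163 and 153 CPM in Kit+ K5+ libraries, against 68.8, 67.9 and 51.3 CPM in Kit- K5+ libraries. Replicate 1 was the highest Kit+ K5+ library for both genes, and neither gene's groups overlapped. The difference of Myb was log2 1.73 ± 0.26 (SE, adjusted p = 0.0182, and 0.00280 with the run as a block). Igfbp5 (chromosome 1, 72857932 to 72874884), a secreted binding protein of insulin-like growth factors, had 468, 295 and 259 CPM in Kit+ K5+ libraries, against 2828, 1981 and 2715 CPM in Kit- K5+ libraries. Every Kit+ K5+ library was several fold below every Kit- K5+ library, and Igfbp5 was lower by log2 -2.88 ± 0.49 (SE, adjusted p = 0.0299, and 0.00631 with the run as a block). In a bulk library, fewer cells of a type and less RNA per cell cannot be told apart, here and below. Without the block, Pou2f3 and Myb lost their calls when Kit+ K5+ replicate 1 or either of Kit- K5+ replicates 1 and 2 was left out (highest adjusted p = 0.0760 for each). Igfbp5 lost its call in these cases and without Kit+ K5+ replicate 2 or 3 (highest adjusted p = 0.1205). With the run as a block all 3 genes kept their calls without any 1 of the 6 libraries. With the block and the whole of run 2 left out, Pou2f3 kept its call (adjusted p = 0.00995) and Myb and Igfbp5 lost theirs (adjusted p = 0.0687 and 0.103).

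**Figure D1:**
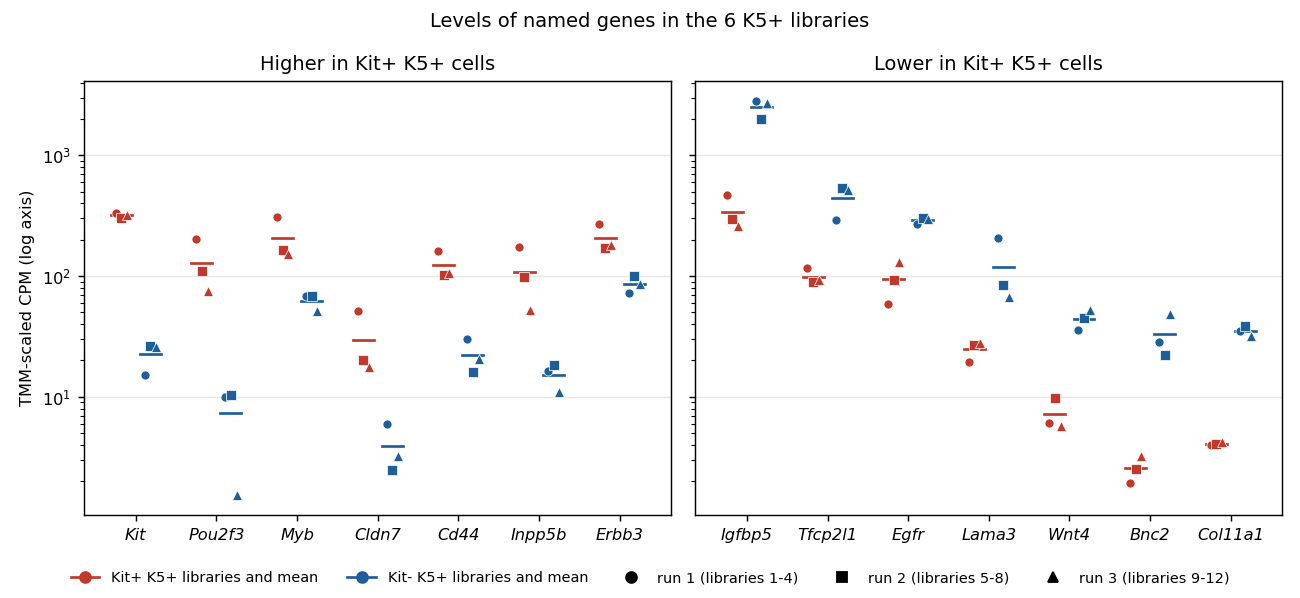
TMM-scaled CPM on a log axis for 7 genes higher and 7 genes lower in Kit+ K5+ cells, 1 point per library, with the mean as a bar and the run as the symbol. Kit+ K5+ libraries (red, left in each pair) and Kit- K5+ libraries (blue) did not overlap for any of the 14 genes, with Igfbp5 at 259 to 468 CPM and 1981 to 2828 CPM. All 14 were picked from genes called without the block, several under a rule that required no overlap. The lack of overlap is thus no separate result.

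Over all genes, 17030 passed the filter on low counts. Without the block, edgeR's quasi-likelihood test called 57 genes higher and 55 lower in Kit+ K5+ cells at an adjusted p under 0.05, which is 0.335% and 0.323% of genes tested and 0.658% together, while 3149 had an unadjusted p under 0.05. With the run of libraries as a block it called 433 higher (2.54%) and 355 lower (2.08%), 4.63% together. All 112 genes of the unblocked fit were among them, and 431 of the 433 higher and 355 of the 355 lower genes differed the same way in all 3 runs. The blocked test favours genes whose runs agree, so this last count is not separate support. Groups of 3 and 3 libraries failed to overlap for 10.2% of genes in the higher and 10.3% in the lower direction. These shares of all genes are the measure for the counts in gene lists below. Among the 9212 genes with a mean of 10 CPM or more in the higher group, the unblocked fit called 0.608% higher and 0.423% lower, and the blocked fit 4.53% and 2.48%. Under upper-quartile scaling the unblocked calls were 35 higher and 64 lower, and the median log2 difference of all genes was -0.157, beside -0.0494 under TMM. Kit, Col11a1 and Tfcp2l1 kept their calls in the unblocked fit without any 1 of the 12 libraries. The unblocked calls otherwise depended on single libraries. Leaving out Kit+ K5+ replicate 1, 2 or 3 gave 4, 12 or 43 calls, and leaving out Kit- K5+ replicate 1, 2 or 3 gave 5, 11 or 63. The K5- libraries of the shared fit bore on the count too, with 240, 123 and 69 calls without Kit+ K5- replicate 1, 2 or 3 and 70, 31 and 58 without Kit- K5- replicate 1, 2 or 3. Fitted alone, the 6 K5+ libraries gave 72 calls, 48 of them among the 112. In the blocked fit between 122 and 641 genes were called with 1 of the 6 libraries left out, the fewest without Kit+ K5+ replicate 1. Of the 43 genes named by rule that passed without the block, 3 kept an unblocked call without that library and 34 a blocked one, and 22 lost the unblocked call without Kit- K5- replicate 2. With the whole of run 2 left out, 17 genes were called in the blocked fit, 7 of the 43 among them. Of the gene lists described below, secretory genes then held 2 calls, and Kit signalling, tuft cell, tight junction, general epithelial and collagen genes 1 each, while every other list held 0.

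**Figure D2:**
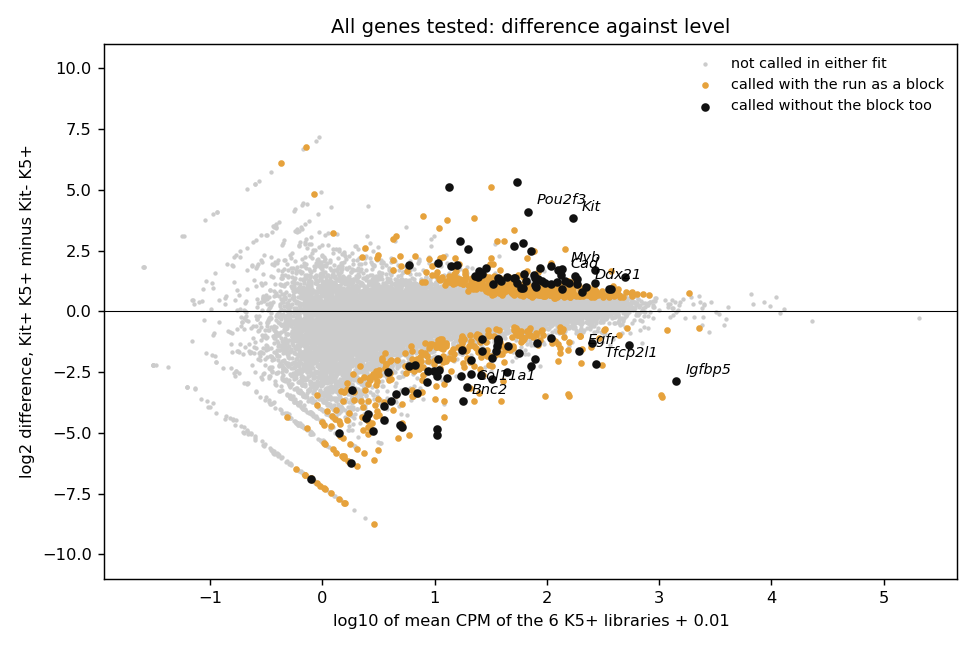
Each point is 1 of 17030 genes tested, with the log10 of its mean CPM over the 6 K5+ libraries on the x axis and the log2 difference of Kit+ K5+ minus Kit- K5+ on the y axis. Black points are the 112 genes called without the block and orange points the 676 called with the block alone.

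Among the larger differences on the Kit+ side were genes of cell junctions, membranes and signalling enzymes. Cldn7, a claudin of tight junctions, had 51.01, 20.1 and 17.7 CPM in Kit+ K5+ libraries, against 6.001, 2.47 and 3.25 CPM in Kit- K5+ libraries (log2 2.91 ± 0.56, adjusted p = 0.0407). Inpp5b, an inositol polyphosphate 5-phosphatase, had 173, 98.1 and 52.5 CPM in Kit+ K5+ libraries, against 16.5, 18.4 and 10.9 CPM in Kit- K5+ libraries (log2 2.81 ± 0.43, adjusted p = 0.0182). For each, the lowest Kit+ K5+ library was well above the highest Kit- K5+ library. No overlap was a condition for naming the genes of this paragraph by size of difference. Podxl, podocalyxin, a sialomucin of apical membranes, had 35.5, 34.3 and 32.2 CPM in Kit+ K5+ libraries, against 4.501, 9.34 and 3.44 CPM in Kit- K5+ libraries, and its Kit+ K5+ libraries were closely alike (log2 2.55 ± 0.42, adjusted p = 0.0237). Cd44, a receptor for hyaluronan, had 162, 103 and 106 CPM in Kit+ K5+ libraries, against 29.9, 16.2 and 20.7 CPM in Kit- K5+ libraries (log2 2.47 ± 0.47, adjusted p = 0.0407). Csn1s1, a casein, had 123, 84.8 and 58.3 CPM in Kit+ K5+ libraries, against 13.8, 21.7 and 5.55 CPM in Kit- K5+ libraries (log2 2.69 ± 0.53, adjusted p = 0.0407). Replicate 1 was the highest Kit+ K5+ library for Cldn7, Inpp5b, Cd44 and Csn1s1. Fam167a had 239, 53.4 and 26.6 CPM in Kit+ K5+ libraries, against 3.38, 0.412 and 4.3999 CPM in Kit- K5+ libraries (log2 5.32 ± 0.91, adjusted p = 0.0299). Rassf6, a Ras-association domain protein, had 52.8, 16.2 and 9.17 CPM in Kit+ K5+ libraries, against 0.375, 1.099 and 0.765 CPM in Kit- K5+ libraries (log2 5.12 ± 0.96, adjusted p = 0.0407). In the unblocked fit each of these 7 genes lost its call when replicate 1 of either group was left out (highest adjusted p from 0.0914 for Inpp5b to 0.140 for Csn1s1 over all libraries left out). In the blocked fit each kept it without any 1 of the 6 libraries. Csn1s1 lost its unblocked call after subtraction of stray signal (adjusted p = 0.0534).

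Genes of growth and division that passed were higher in Kit+ K5+ cells, mostly by small differences and with the block alone. The ribosome biogenesis list, factors that make and assemble rRNA in the nucleolus, had 2 of 20 genes higher and 0 lower without the block and 7 higher and 0 lower with it. All 20 had a positive log2 difference under TMM and each of the 3 other scalings. Its median was 0.68 log2, beside -0.05 over all genes tested. The 20 genes together summed to 4920, 5611 and 5707 CPM in Kit+ K5+ libraries, against 2342, 4025 and 3517 CPM in Kit- K5+ libraries. Ddx21, a nucleolar RNA helicase, had 296, 281 and 319.8 CPM in Kit+ K5+ libraries, against 124, 169.7 and 149 CPM in Kit- K5+ libraries (log2 1.02 ± 0.20, adjusted p = 0.0407). Bop1, a factor of the large ribosomal subunit, had 28.8, 37.2 and 34.2 CPM in Kit+ K5+ libraries, against 10.8, 15.2 and 10.9 CPM in Kit- K5+ libraries (log2 1.44 ± 0.28, adjusted p = 0.0407). For both genes the Kit+ K5+ libraries lay above all Kit- K5+ libraries, and for 15 of the 20 genes they did so, beside 10.2% of all genes tested. Nolc1, a nucleolar phosphoprotein, passed with the block alone, with 138, 175 and 139.7 CPM in Kit+ K5+ libraries, against 83.8, 79.1 and 55.1 CPM in Kit- K5+ libraries (log2 1.06 ± 0.18, adjusted p = 0.00916 with the block). Left out 1 at a time with the block, the 6 libraries gave 4 to 7 genes called, fewest without Kit+ K5+ replicate 1 or 3, and the blocked fit of the 6 K5+ libraries alone called 3.

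Of 34 DNA replication genes tested, 0 were called higher or lower without the block and 10 higher and 0 lower with it, with a median of 0.575 log2 and at least 32 of the 34 positive under each of the 4 scalings. The list summed to 3185, 3249 and 3040 CPM in Kit+ K5+ libraries, against 1603, 2228 and 2242 CPM in Kit- K5+ libraries. The 3 Kit+ K5+ sums were close to each other and above all 3 Kit- K5+ sums. Without overlap in this direction were 24 of the 34 genes, beside 10.2% of all genes tested. Mcm5, a subunit of the replicative helicase, had 86.9, 83.01 and 84.2 CPM in Kit+ K5+ libraries, against 43.8, 52.9 and 30.99 CPM in Kit- K5+ libraries (log2 1.03 ± 0.18, adjusted p = 0.0116 with the block). Rrm2, the small subunit of ribonucleotide reductase, had 226, 223 and 209 CPM in Kit+ K5+ libraries, against 44.9, 109 and 122 CPM in Kit- K5+ libraries (log2 1.33 ± 0.26, adjusted p = 0.0184 with the block). Uhrf1, which recruits maintenance methylation to newly copied DNA, had 165, 201 and 168 CPM in Kit+ K5+ libraries, against 68.3, 112 and 105 CPM in Kit- K5+ libraries (log2 0.92 ± 0.17, adjusted p = 0.0118 with the block). The lowest library of each of the 3 genes was Kit- K5+ replicate 1 or, for Mcm5, replicate 3. Mcm5 lost its blocked call without Kit+ K5+ replicate 1 or 3, and Rrm2 and Uhrf1 without Kit+ K5+ replicate 1 (highest adjusted p = 0.0545, 0.0756 and 0.06455). The 10 calls depended on the libraries and the fit. With the block, edgeR called 0 genes of the list without Kit+ K5+ replicate 1, 0 without run 2 and 0 in the 6 K5+ libraries alone, and 6 after subtraction of stray signal. DESeq2 called 11 without the block.

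Mitosis genes and regulators of the G1 phase that passed were also higher in Kit+ K5+ cells. Of 28 mitosis genes, 1 was higher and 0 lower without the block and 7 higher and 0 lower with it (median 0.49 log2). Aurkb, Aurora kinase B, had 123, 147 and 109.6 CPM in Kit+ K5+ libraries, against 44.1, 55.6 and 60.1 CPM in Kit- K5+ libraries (log2 1.25 ± 0.21, adjusted p = 0.0246). Plk1, Polo-like kinase 1, had 82.5, 88.9 and 81.9 CPM in Kit+ K5+ libraries, against 47.6, 40.1 and 37.5 CPM in Kit- K5+ libraries (log2 1.01 ± 0.22, adjusted p = 0.0278 with the block). Kit+ K5+ libraries were above all Kit- K5+ libraries for both kinases. Mki67, a widely used proliferation marker, had 1970.4, 1370.4 and 2378 CPM in Kit+ K5+ libraries, against 1117, 1380.1 and 1501 CPM in Kit- K5+ libraries, with groups that overlapped (adjusted p = 0.239). Of 27 G1 regulators and CDK inhibitors, 1 was higher without the block, Myb, and 7 with it, with 0 lower in either. Ccnd1, cyclin D1, had 491, 731 and 479 CPM in Kit+ K5+ libraries, against 89.9, 269.7 and 176 CPM in Kit- K5+ libraries (log2 1.74 ± 0.27, adjusted p = 0.00559 with the block). E2f8, an E2F factor of S phase, had 176, 151 and 214 CPM in Kit+ K5+ libraries, against 70.02, 78.9 and 99.9 CPM in Kit- K5+ libraries (log2 1.127 ± 0.18, adjusted p = 0.00642 with the block). Myc, a driver of ribosome and nucleotide synthesis, had 292, 330.2 and 241 CPM in Kit+ K5+ libraries, against 133, 209 and 119 CPM in Kit- K5+ libraries (log2 0.93 ± 0.24, adjusted p = 0.0468 with the block). For none of these 3 genes did the groups overlap. With the block and 1 library left out, 1 to 4 mitosis genes and 3 to 4 G1 genes were called, the fewest of both without Kit+ K5+ replicate 1 or 3, and for the G1 genes also without replicate 2 of that group. Aurkb, Ccnd1 and E2f8 kept their blocked calls without any 1 library, and Plk1 lost it without Kit+ K5+ replicate 1 or 3 or Kit- K5+ replicate 2 or 3 (highest adjusted p = 0.120). In the blocked fit of the 6 K5+ libraries alone, 1 mitosis gene, Aurkb, and 3 G1 genes were called.

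Lists of nucleotide synthesis, tRNA charging and amino acid import were added after these values were seen and describe genes picked for them. Of 30 genes of folate one-carbon and nucleotide synthesis, 4 were higher without the block and 10 with it, and 0 were lower. Cad, which starts pyrimidine synthesis, had 209, 233 and 154 CPM in Kit+ K5+ libraries, against 59.4, 78.2 and 72.9 CPM in Kit- K5+ libraries (log2 1.502 ± 0.23, adjusted p = 0.0182). Shmt2, a mitochondrial serine hydroxymethyltransferase, had 165, 214 and 138 CPM in Kit+ K5+ libraries, against 74.9, 85.2 and 66.2 CPM in Kit- K5+ libraries (log2 1.19 ± 0.23, adjusted p = 0.0407). Neither gene's groups overlapped, and replicate 2 was the highest library for both. Of 23 cytosolic aminoacyl-tRNA synthetases, 1 was higher without the block and 6 with it, with 0 lower, and 22 of 23 had positive log2 differences. Slc7a5, the LAT1 amino acid transporter, had 148, 337 and 299 CPM in Kit+ K5+ libraries, against 93.02, 107 and 84.4 CPM in Kit- K5+ libraries (log2 1.46 ± 0.28, adjusted p = 0.0407), lowest among Kit+ K5+ libraries in replicate 1. The 17 amino acid transporters as a list were split, with 9 positive and 8 negative log2 differences and a median of 0.0459. Of them 1 was higher and 0 lower without the block, Slc7a5, and 4 higher and 1 lower with it. The lower one was Slc7a3, a transporter of cationic amino acids, with 0.184, 0.771 and 0.904 CPM in Kit+ K5+ libraries, against 4.75, 4.26 and 3.25 CPM in Kit- K5+ libraries (log2 -2.89 ± 0.73, adjusted p = 0.0453 with the block), a call lost after subtraction of stray signal and kept with 1 library left out only without Kit- K5+ replicate 3. Of 26 ER folding genes 0 passed without the block and 3 were higher with it. Hyou1, an ER chaperone among them, had 297, 278 and 351 CPM in Kit+ K5+ libraries, against 198, 190.0 and 179.6 CPM in Kit- K5+ libraries (log2 0.70 ± 0.18, adjusted p = 0.0466 with the block). This call was lost whichever of the 6 libraries was left out (highest adjusted p = 0.149). With the block and 1 library left out, 4 to 8 nucleotide genes and 1 to 6 synthetases were called, the fewest of both without Kit+ K5+ replicate 1, and 1 to 3 amino acid transporters were called higher. In the blocked fit of the 6 K5+ libraries alone these lists held 5, 1 and 1 genes called higher.

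Promoters of 2 of the cell cycle genes and of Igfbp5 are shown to set genes called higher with the block beside an abundant gene called lower. Mcm5 and Cdk1 were picked as genes with a match to the motif below, and Cdk1 is the 1 mitosis gene that holds one. Each run is the 250 bases before the RefSeq start, on the gene's strand and 5′ to 3′, from GRCm38.p6, and capitals mark matches on either strand to TTTNNCGC, the general shape of sites described for E2F factors, with overlapping matches joined.
Mcm5, chr8:75109259-75109508, plus strand: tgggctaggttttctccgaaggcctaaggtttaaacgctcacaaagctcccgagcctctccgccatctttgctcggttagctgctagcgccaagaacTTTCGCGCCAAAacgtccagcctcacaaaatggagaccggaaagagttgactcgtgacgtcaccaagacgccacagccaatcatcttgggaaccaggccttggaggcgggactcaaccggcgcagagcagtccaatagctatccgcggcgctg
Cdk1, chr10:69352913-69353162, minus strand: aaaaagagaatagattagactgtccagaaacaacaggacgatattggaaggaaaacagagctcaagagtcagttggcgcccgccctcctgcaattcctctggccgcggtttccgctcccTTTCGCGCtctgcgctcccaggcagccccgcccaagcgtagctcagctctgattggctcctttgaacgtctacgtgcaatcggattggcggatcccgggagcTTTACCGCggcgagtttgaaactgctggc
Igfbp5, chr1:72874866-72875115, minus strand: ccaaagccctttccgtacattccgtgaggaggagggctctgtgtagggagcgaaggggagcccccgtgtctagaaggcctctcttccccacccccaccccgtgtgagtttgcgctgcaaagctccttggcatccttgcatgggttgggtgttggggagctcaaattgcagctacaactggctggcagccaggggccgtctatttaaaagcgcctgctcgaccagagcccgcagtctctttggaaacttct
The Mcm5 window held 2 overlapping matches, starting 153 and 149 bases before the start, Cdk1 held 2, at 131 and 29 bases, and Igfbp5 held 0. Of 28 DNA replication genes with a RefSeq promoter in the table, 7 (25.0%) had a match, and of 23 mitosis genes 1 (4.35%), beside 1186 of 27025 genes in the whole table (4.39%) and 777 of the 11515 genes tested that had a promoter (6.75%). Among genes called with the block, 40 of 338 higher genes (11.8%) and 11 of 236 lower genes (4.66%) with a promoter had one. A match describes letters in this window and not binding.

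**Figure D3:**
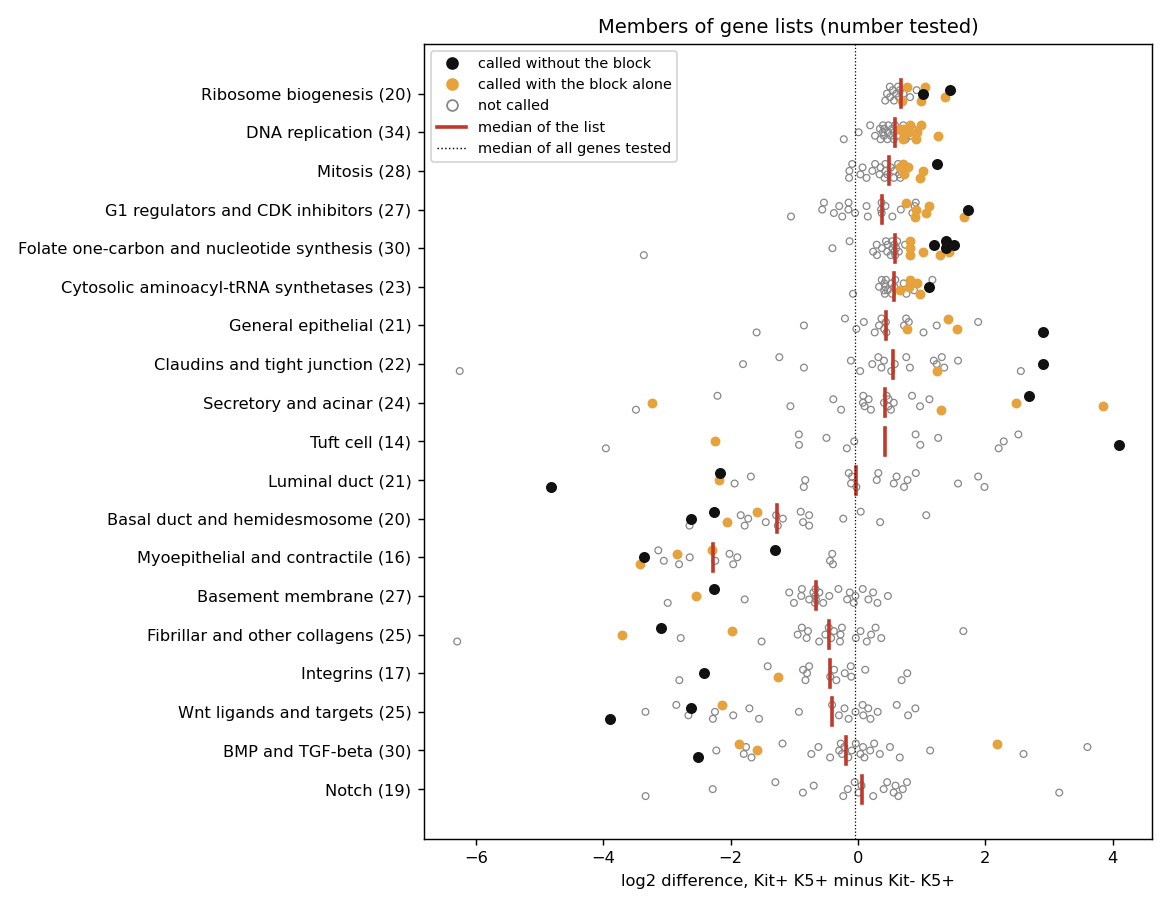
Log2 differences of Kit+ K5+ minus Kit- K5+ for the tested members of 19 gene lists, 1 point per gene, black where called without the block, orange where called with the block alone and open otherwise. Red bars are list medians, from 0.68 for ribosome biogenesis to -2.27 for myoepithelial genes, and the dotted line is the median of all genes, -0.05.

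Genes of general epithelial identity and of tight junctions included a few that were higher in Kit+ K5+ cells. Of 21 general epithelial genes, 1 was higher without the block, Cldn7, and 4 with it, with 0 lower. Rab25, an epithelial Rab GTPase, had 31.4, 24.4 and 10.5 CPM in Kit+ K5+ libraries, against 7.502, 8.11 and 6.89 CPM in Kit- K5+ libraries (log2 1.44 ± 0.31, adjusted p = 0.0247 with the block). St14, the membrane protease matriptase, had 100.4, 105 and 57.9 CPM in Kit+ K5+ libraries, against 54.4, 54.8 and 44.4 CPM in Kit- K5+ libraries (log2 0.74 ± 0.19, adjusted p = 0.0434 with the block). Both kept the groups apart, St14 by a small margin, and St14 lost its call whichever of the 6 libraries was left out (highest adjusted p = 0.181). Of 22 claudin and tight junction genes 1 was higher without and 2 with the block, beside 0.335% and 2.54% of all genes tested. The second was Cldn10. This claudin had 68.4, 32.3 and 25.3 CPM in Kit+ K5+ libraries, against 26.4, 17.2 and 9.76 CPM in Kit- K5+ libraries, and overlapping groups (log2 1.22 ± 0.21, adjusted p = 0.0102 with the block, and 0.0637 without Kit+ K5+ replicate 1). Rab25 lost its call without replicate 1 or 2 of either group (highest adjusted p = 0.117). With the block, 1 to 4 general epithelial and 1 to 2 junction genes were called when 1 library was left out, the fewest of both without Kit+ K5+ replicate 1.

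Several secretory genes were highest in run 1 of both groups. Of 24 secretory and acinar genes tested, 1 was higher without the block, Csn1s1, and with the block 4 were higher and 1 lower. Bpifa2, a salivary secreted protein also called parotid secretory protein, had 370.4, 25.3 and 0.388 CPM in Kit+ K5+ libraries, against 68.02, 0.687 and 0.956 CPM in Kit- K5+ libraries. Run 1 was highest in both groups, and 3 of the other 4 libraries were under 1 CPM. The difference passed with the block alone (log2 3.05 ± 0.65, adjusted p = 0.0247) and not without it (adjusted p = 0.589), and without Kit+ K5+ replicate 1 the unblocked difference was log2 -0.83. Spdef, an ETS factor of secretory cells, had 77.7, 40.3 and 8.01 CPM in Kit+ K5+ libraries, against 4.88, 3.297 and 0.191 CPM in Kit- K5+ libraries (log2 3.92 ± 0.43, adjusted p = 8.02e-04 with the block, 0.103 without). Bhlha15, known as Mist1, a factor of secretory cells, had 29.8, 22.6 and 5.68 CPM in Kit+ K5+ libraries, against 15.9, 6.73 and 0.574 CPM in Kit- K5+ libraries and overlapping groups (log2 1.69 ± 0.36, adjusted p = 0.0246 with the block). Aqp5, the water channel of acinar cells, had 27.9, 10.03 and 1.29 CPM in Kit+ K5+ libraries, against 14.003, 3.71 and 0 CPM in Kit- K5+ libraries and passed in neither fit (adjusted p = 0.707 and 0.154). The lower gene with the block was Smr3a, an androgen-regulated protein of the submandibular gland, with 2.86, 0.578 and 0.129 CPM in Kit+ K5+ libraries, against 23.8, 8.24 and 2.49 CPM in Kit- K5+ libraries (log2 -3.31 ± 0.79, adjusted p = 0.0359). With the block, Bpifa2 lost its call without Kit- K5+ replicate 1, replicate 2 of either group or Kit+ K5+ replicate 3, and Bhlha15 in these cases except Kit- K5+ replicate 1 (highest adjusted p = 0.0872 and 0.0789). The 5 secretory genes with values here were each highest in replicate 1 of their group, but 2 of them, Aqp5 and Smr3a, were chosen after their values were seen. Csn1s1, with values given above, was highest in replicate 2 among the Kit- K5+ libraries. With the block, 2 to 5 secretory genes were called higher when 1 library was left out, the fewest without replicate 2 of either group or Kit+ K5+ replicate 3.

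Of the tuft cell list, Pou2f3 was the only gene called higher. Of 14 members tested, 1 was higher and 0 lower without the block, and 1 higher and 1 lower with it. Pou2f3 included, 4 were higher and 2 lower without overlap, beside 10.2% and 10.3% of all genes tested. The gene called lower was Dclk1, a kinase of tuft cells in the mouse gut, with 2.77, 0.868 and 2.07 CPM in Kit+ K5+ libraries, against 7.13, 9.07 and 10.9 CPM in Kit- K5+ libraries (log2 -2.38 ± 0.52, adjusted p = 0.0273 with the block). It was not called without Kit+ K5+ replicate 1, 2 or 3 or Kit- K5+ replicate 2 (highest adjusted p = 0.0894). Trpm5, the cation channel of taste and tuft cells, had 3.41, 5.495 and 2.07 CPM in Kit+ K5+ libraries, against 0.5001, 7.97 and 3.06 CPM in Kit- K5+ libraries and overlapping groups (adjusted p = 0.975). The other 8 members of the list, Il25 and Gnat3 among them, did not pass the filter on low counts. In the list of salivary progenitor and end bud factors, Myb was the 1 of 18 genes called in either fit. Sox10, a factor of distal salivary progenitors, had 75.3, 212 and 163 CPM in Kit+ K5+ libraries, against 262, 178 and 81.1 CPM in Kit- K5+ libraries (adjusted p = 0.875). Sox9, a related factor, had 176, 274 and 156 CPM in Kit+ K5+ libraries, against 200.3, 255 and 198 CPM in Kit- K5+ libraries (adjusted p = 0.869). Both overlapped between groups. In the Kit signalling list, Kit was the 1 of 21 genes called, and Kitl, its ligand, had 280.3, 226 and 297 CPM in Kit+ K5+ libraries, against 487, 404 and 203 CPM in Kit- K5+ libraries (adjusted p = 0.529).

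On the Kit- side stood genes of the basal layer, the hemidesmosome and contractile cells. Of 20 basal duct and hemidesmosome genes, 0 were higher and 2 lower in Kit+ K5+ cells without the block and 0 and 4 with it. Their median was -1.27 log2, and 10 of 20 were lower without overlap, beside 10.3% of all genes tested. The 2 unblocked calls were Lama3 and Wnt4, which the basement membrane and Wnt lists below count again. Lama3, the laminin alpha chain of epithelial anchorage, had 19.5, 26.9 and 27.6 CPM in Kit+ K5+ libraries, against 205, 83.8 and 66.95 CPM in Kit- K5+ libraries (log2 -2.27 ± 0.44, adjusted p = 0.0407). Col17a1, the transmembrane collagen of hemidesmosomes, had 35.5, 59.7 and 51.9 CPM in Kit+ K5+ libraries, against 305, 153 and 152 CPM in Kit- K5+ libraries (log2 -2.23 ± 0.52, adjusted p = 0.0329 with the block). Dst, which links hemidesmosomes to keratin, had 5.35, 9.45 and 14.3 CPM in Kit+ K5+ libraries, against 40.9, 18.1 and 28.5 CPM in Kit- K5+ libraries (log2 -1.55 ± 0.36, adjusted p = 0.0323 with the block). Kit- K5+ libraries were above all Kit+ K5+ libraries for the 3 genes, with replicate 1 the highest. Lama3 lost its blocked call without Kit+ K5+ replicate 1, 2 or 3 (highest adjusted p = 0.117), and Col17a1 and Dst without any of these or Kit- K5+ replicate 1 (highest adjusted p = 0.141 and 0.1335). Itgb4, the hemidesmosome integrin, had 134, 155 and 122 CPM in Kit+ K5+ libraries, against 335, 243 and 169.9 CPM in Kit- K5+ libraries and passed in neither fit (adjusted p = 0.176 and 0.0994). With the block, 1 to 7 genes of the list were called with 1 library left out, the fewest without 1 of the Kit+ K5+ libraries.

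All 16 myoepithelial and contractile genes had negative log2 differences under each of the 4 scalings, but few passed. Without the block 2 were lower and with it 5, and 0 were higher, with a median of -2.27 log2. Acta2, an actin of contractile cells, had 41.97, 21.3 and 16.5 CPM in Kit+ K5+ libraries, against 704, 124 and 26.4 CPM in Kit- K5+ libraries (log2 -2.98 ± 0.74, adjusted p = 0.0418 with the block, 0.0745 without). The Kit- K5+ libraries spanned a wide range, with replicate 1 far above the other two and replicate 3 below the highest Kit+ K5+ library. Mylk, myosin light chain kinase, had 15.9, 5.98 and 8.01 CPM in Kit+ K5+ libraries, against 174, 24.9 and 16.1 CPM in Kit- K5+ libraries (log2 -2.32 ± 0.41, adjusted p = 0.0113 with the block). Cald1, caldesmon, had 109, 144 and 184 CPM in Kit+ K5+ libraries, against 419, 418 and 235 CPM in Kit- K5+ libraries (log2 -1.30 ± 0.26, adjusted p = 0.0458). The list summed to 906.5, 900.3 and 848.5 CPM in Kit+ K5+ libraries, against 3107, 1547 and 967 CPM in Kit- K5+ libraries. The Kit+ K5+ sums were nearly equal, while those of Kit- K5+ libraries differed more than 3-fold. With the block, leaving out Kit+ K5+ replicate 1 gave 0 genes called in the list and leaving out Kit- K5+ replicate 3 gave 9. With the block Cald1 was not called without replicate 1 or 2 of either group (highest adjusted p = 0.1235). Mylk lost its blocked call without Kit+ K5+ replicate 1 (adjusted p = 0.0878).

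Of 21 luminal duct genes tested, 0 were higher and 2 lower in Kit+ K5+ cells without the block, and 0 and 3 with it. Over all 21, 10 log2 differences were positive and 11 negative. Tfcp2l1 (chromosome 1, 118627945 to 118685168), a CP2 family factor of ducts in kidney and salivary gland, had 116, 88.6 and 92.9 CPM in Kit+ K5+ libraries, against 290.4, 536 and 511 CPM in Kit- K5+ libraries. It was lower in every Kit+ K5+ library than in every Kit- K5+ library, by log2 -2.17 ± 0.27 (SE, adjusted p = 0.00642, and 0.00130 with the run as a block), with or without any 1 of the 12 libraries (highest adjusted p = 0.0474), though not with the block and run 2 left out (adjusted p = 0.0791). Krt7, a keratin of simple ducts, had 5.26, 3.47 and 1.94 CPM in Kit+ K5+ libraries, against 15.9, 15.5 and 17.4 CPM in Kit- K5+ libraries (log2 -2.40 ± 0.53, adjusted p = 0.0280 with the block). Krt19, another duct keratin, had 26.1, 6.94 and 0.775 CPM in Kit+ K5+ libraries, against 15.8, 11.3 and 7.46 CPM in Kit- K5+ libraries and overlapped (adjusted p = 0.994). Of 18 desmosome and stratified epithelium genes, 0 passed without the block and 2 were lower with it. Both were desmocollins. Dsc3 had 7.75, 10.03 and 14.99 CPM in Kit+ K5+ libraries, against 44.9, 60.03 and 47.1 CPM in Kit- K5+ libraries (log2 -2.30 ± 0.42, adjusted p = 0.0128 with the block). Dsc2 had 51.8, 56.7 and 51.2 CPM in Kit+ K5+ libraries, against 135, 139 and 88.6 CPM in Kit- K5+ libraries (log2 -1.19 ± 0.27, adjusted p = 0.0302 with the block). Neither gene's libraries overlapped between groups. With 1 library left out, Dsc3 lost its blocked call without Kit- K5+ replicate 1 or Kit+ K5+ replicate 2 (highest adjusted p = 0.0529). Dsc2 kept its call in 1 such case, without Kit- K5+ replicate 3, and Krt7 in 1, without Kit- K5+ replicate 1 (highest adjusted p = 0.108 and 0.128).

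Among growth factor receptors, 2 members of the ErbB family differed in opposite directions. Egfr, the receptor of epidermal growth factor, had 58.7, 92.9 and 131 CPM in Kit+ K5+ libraries, against 272, 305 and 298 CPM in Kit- K5+ libraries (log2 -1.63 ± 0.32, adjusted p = 0.0407). Erbb3, a receptor of neuregulins, had 269, 171 and 180.2 CPM in Kit+ K5+ libraries, against 73.02, 99.3 and 85.7 CPM in Kit- K5+ libraries (log2 1.26 ± 0.23, adjusted p = 0.0393). Neither receptor's groups overlapped, and no other of the 14 ErbB genes tested was called. Without the block, Egfr and Erbb3 each lost the call without replicate 1 or 2 of either group, among other libraries (highest adjusted p = 0.1615 and 0.121). With it Egfr kept the call without any 1 library while Erbb3 lost it without Kit+ K5+ replicate 1 (adjusted p = 0.06455). Erbb3 also stands in the Schwann cell list, of whose 9 tested genes no other was called. This list summed to 381, 466 and 436 CPM in Kit+ K5+ libraries, against 357, 300.0 and 236 CPM in Kit- K5+ libraries, without overlap. Erbb3 is part of these sums, and the sums without Erbb3 overlapped between groups. Fgfr2, the FGF receptor that drives salivary budding, had 104, 179 and 278 CPM in Kit+ K5+ libraries, against 360.5, 419 and 408 CPM in Kit- K5+ libraries (log2 -1.27 ± 0.29, adjusted p = 0.0322 with the block, 0.271 without). Of the 17 genes of the insulin-like growth factor list, 0 were higher, 2 lower without the block and 3 with it. Besides Igfbp5 these included H19, an imprinted RNA, with 201, 330.1 and 363 CPM in Kit+ K5+ libraries, against 907, 614 and 841 CPM in Kit- K5+ libraries (log2 -1.40 ± 0.26, adjusted p = 0.0395). The other was Igf1r, the receptor, with 23.1, 52.2 and 67.6 CPM in Kit+ K5+ libraries, against 94.6, 89.98 and 96.03 CPM in Kit- K5+ libraries (log2 -1.10 ± 0.28, adjusted p = 0.0468 with the block). H19 lost its blocked call without Kit+ K5+ replicate 1 (adjusted p = 0.0714), and Fgfr2 and Igf1r lost theirs whichever library was left out, other than Kit- K5+ replicate 3 (highest adjusted p = 0.142 and 0.220).

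Most Wnt, BMP and TGF-beta genes that passed were lower in Kit+ K5+ cells. Of 25 Wnt genes, 0 were higher, 2 lower without the block and 3 with it. Wnt4, a Wnt ligand, had 6.09, 9.74 and 5.68 CPM in Kit+ K5+ libraries, against 36.01, 44.6 and 52.03 CPM in Kit- K5+ libraries (log2 -2.62 ± 0.42, adjusted p = 0.0223). All Kit- K5+ libraries were several fold above all Kit+ K5+ libraries. Wnt5b, another ligand at low level, had 0.738, 0.386 and 0.129 CPM in Kit+ K5+ libraries, against 3.88, 4.67 and 11.3 CPM in Kit- K5+ libraries (log2 -3.89 ± 0.80, adjusted p = 0.0458), and its unblocked call was lost after subtraction of stray signal. Of 30 BMP and TGF-beta genes, 0 were higher and 1 lower without the block, and 1 and 3 with it. Fst, follistatin, an antagonist of activins, had 21.1, 6.27 and 12.5 CPM in Kit+ K5+ libraries, against 106, 76.1 and 45.7 CPM in Kit- K5+ libraries (log2 -2.51 ± 0.45, adjusted p = 0.0363). Tgfbr2, a TGF-beta receptor, had 26.8, 24.9 and 18.2 CPM in Kit+ K5+ libraries, against 119.5, 62.2 and 27.7 CPM in Kit- K5+ libraries (log2 -1.41 ± 0.25, adjusted p = 0.0116 with the block). The higher one was Inhbb, an activin subunit, with 37.6, 13.6 and 3.36 CPM in Kit+ K5+ libraries, against 7.75, 2.88 and 1.15 CPM in Kit- K5+ libraries and overlapping groups (log2 2.07 ± 0.49, adjusted p = 0.0353 with the block). Of 16 Hippo genes, Rassf6 was higher, and with the block Lats2, Tead1 and Cyr61 were lower. Lats2, a Hippo kinase, had 16.7, 26.9 and 23.5 CPM in Kit+ K5+ libraries, against 58.8, 61.8 and 40.2 CPM in Kit- K5+ libraries (log2 -1.26 ± 0.28, adjusted p = 0.0294 with the block). With the block and 1 library left out, Wnt4 and Fst kept their calls in each case, and Tgfbr2 lost its call without Kit+ K5+ replicate 1 (adjusted p = 0.0873). Wnt5b lost it without Kit+ K5+ replicate 2 or 3 or Kit- K5+ replicate 3 (highest adjusted p = 0.0886). Inhbb was called there only with Kit+ K5+ replicate 3 left out, and Lats2 only with Kit- K5+ replicate 3 left out (highest adjusted p = 0.197 and 0.155). Of 19 Notch genes 0 were called in either fit. Notch1, a receptor, had 276, 358 and 378 CPM in Kit+ K5+ libraries, against 299, 320.0 and 239 CPM in Kit- K5+ libraries (adjusted p = 0.577). Of 12 Hedgehog genes 0 passed without the block and 1, Gas1, was lower with it.

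Collagens, basement membrane genes, integrins and axon guidance genes that passed were lower in Kit+ K5+ cells. Of 25 collagens, 0 were higher, 1 lower without the block and 3 with it. Col11a1 (chromosome 3, 114030540 to 114220718), a chain of type XI collagen, had 3.97, 4.05 and 4.26 CPM in Kit+ K5+ libraries, against 35.1, 38.6 and 31.8 CPM in Kit- K5+ libraries. The 3 Kit+ K5+ libraries were almost equal and 8.58-fold below the Kit- K5+ libraries in the fit, by log2 -3.10 ± 0.28 (SE, adjusted p = 2.78e-04, and 1.65e-04 with the run as a block). The stray signal expected for its exons was 1.27, 0.38 and 2.21 CPM in the 3 Kit- K5+ libraries. Of 27 basement membrane genes 0 were higher, 1 lower without the block and 2 with it, Lama3 and Frem1. Of all genes tested, 0.323% were lower without the block and 2.08% with it. Of 17 integrins, 0 were higher, 1 lower without the block and 2 with it. Itgb6, an epithelial integrin subunit that activates TGF-beta, had 4.15, 3.47 and 2.71 CPM in Kit+ K5+ libraries, against 13.8, 23.8 and 17.98 CPM in Kit- K5+ libraries (log2 -2.42 ± 0.45, adjusted p = 0.0407). Its blocked call was lost without replicate 2 of either group or Kit+ K5+ replicate 3 (highest adjusted p = 0.0655). Itgb8, another such subunit, had 32.7, 21.2 and 50.1 CPM in Kit+ K5+ libraries, against 89.4, 89.02 and 69.4 CPM in Kit- K5+ libraries (log2 -1.40 ± 0.33, adjusted p = 0.0343 with the block), a call kept only without Kit- K5+ replicate 3 (highest adjusted p = 0.113). Of 40 axon guidance genes, 0 were higher, 1 lower without the block and 3 with it, beside the same shares of all genes. Slit2, a secreted guidance protein, had 29.3, 18.6 and 31.01 CPM in Kit+ K5+ libraries, against 117, 69.5 and 73.3 CPM in Kit- K5+ libraries (log2 -1.72 ± 0.27, adjusted p = 0.0205), with no overlap. Bnc2, a basonuclin zinc finger protein, had 1.94, 2.51 and 3.23 CPM in Kit+ K5+ libraries, against 28.5, 22.1 and 48.2 CPM in Kit- K5+ libraries (log2 -3.69 ± 0.49, adjusted p = 0.0111, and 0.0546 without Kit+ K5+ replicate 1).

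The Kit sort among K5- cells was measured in other libraries of the same runs, which entered the same fit as the K5+ libraries and bore on the K5+ calls as given above. Of the 57 genes called higher in Kit+ K5+ cells without the block, 51 had a positive log2 difference in K5- cells too and 44 were called higher there, beside 10.2% of all genes. Of the 55 called lower, 47 had a negative log2 difference and 35 were called lower in K5- cells, beside 11.1% of all genes. Genes are not independent replicates, so these are counts and no test. Kit, Pou2f3, Myb and Igfbp5 had log2 differences of 4.54, 5.34, 3.05 and -2.35 in K5- cells, and none of the 4 differed between the K5+ and K5- comparisons at the threshold in the unblocked fit (interaction adjusted p = 0.363, 0.458, 0.0631 and 0.717). With the block Myb passed the interaction test (adjusted p = 0.0203), with the smaller difference in K5+ cells. The Kit- K5- libraries held 11310 to 18300 CPM of mesenchyme genes, beside 774 to 1129 CPM in Kit- K5+ libraries. Mast cell genes summed to 5676, 282.3 and 200.3 CPM in Kit+ K5- libraries, against 91.7, 45.9 and 57.0 CPM in Kit- K5- libraries. Mast cells carry Kit, and of 11 such genes tested 9 were called higher in Kit+ K5- cells without the block, beside 10.2% of all genes. The part of either list in the K5- comparison was not tested.

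**Figure D4:**
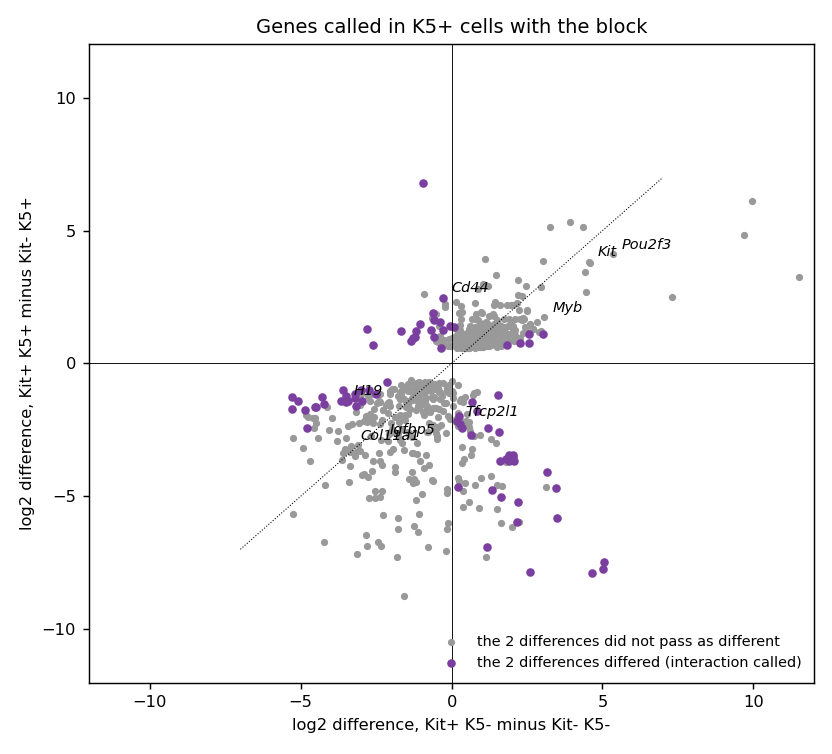
Log2 difference of Kit+ minus Kit- among K5- cells (x axis) and among K5+ cells (y axis) for the 788 genes called in K5+ cells with the block. Purple marks the 78 genes whose 2 differences differed in the unblocked interaction test, 24 of them higher and 54 lower in Kit+ K5+ cells, and the dotted line marks equal differences.

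The interaction test, which asks whether the Kit difference in K5+ cells differs from that in K5- cells, called 4.02% of all genes, and 8 of the 57 higher and 15 of the 55 lower genes of the K5+ comparison. The 57 and 55 genes were picked by K5+ libraries that also enter this test. Their counts beside the share of all genes are thus no separate result. Tfcp2l1 was among the genes that passed. It averaged 99.1 ± 14.6 CPM in Kit+ K5+ libraries, set against 446 ± 135 CPM in Kit- K5+ libraries. Among K5- cells it averaged 64.8 ± 7.06 CPM with Kit, against 57.8 ± 14.9 CPM without Kit (SD, n = 3 each). The difference of the differences was log2 -2.34 (adjusted p = 0.00230). The Kit- K5+ libraries were thus the high ones of the 4 populations. Lama3, Itgb6 and Dsc2 had interaction log2 values of -2.56, -2.75 and -2.71 (adjusted p = 0.0336, 0.0266 and 0.00230). Wnt4 averaged 7.17 ± 2.23 CPM in Kit+ K5+ libraries, set against 44.2 ± 8.02 CPM in Kit- K5+ libraries (SD, n = 3 each), and 7.299 ± 3.15 CPM in Kit+ K5- libraries, set against 10.5 ± 4.81 CPM in Kit- K5- libraries. Its interaction passed with the block alone (adjusted p = 0.0565 without and 0.0162 with it). In the other direction, Cd44 averaged 123 ± 33.2 CPM in Kit+ K5+ libraries, set against 22.3 ± 6.97 CPM in Kit- K5+ libraries. Among K5- cells it averaged 95.4 ± 37.7 CPM with Kit, against 117 ± 88.5 CPM without Kit (SD, n = 3 each). Its interaction was log2 2.76 (adjusted p = 0.0262).

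**Figure D5:**
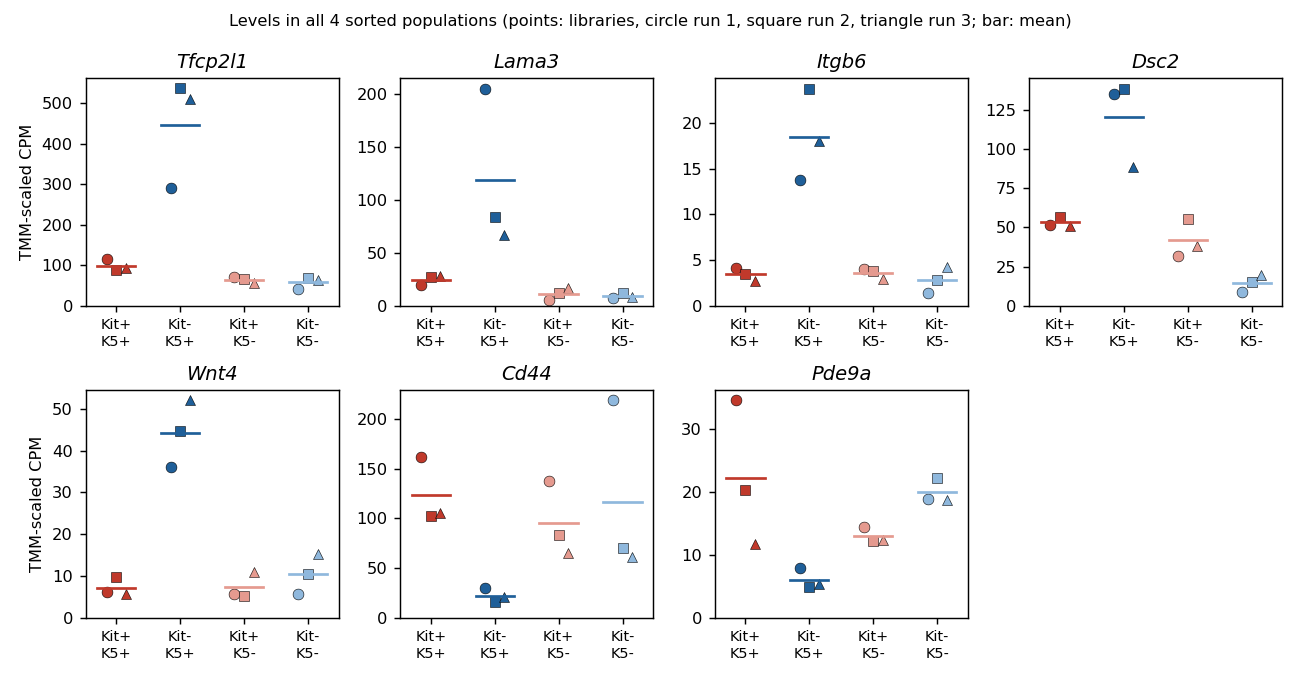
TMM-scaled CPM of 7 genes in the 4 sorted populations, 1 point per library with the run as its symbol and the mean as a bar. Tfcp2l1, Lama3, Itgb6, Dsc2 and Wnt4 were highest in Kit- K5+ libraries, while Cd44 and Pde9a were lowest there.

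Markers of other cells were present at various levels in both K5+ groups. Summed over the lists, mesenchyme genes stood at 751 to 1045 CPM in Kit+ K5+ libraries, beside 774 to 1129 CPM in Kit- K5+ libraries. Leukocyte genes stood at 51.55 to 63.05 CPM in Kit+ K5+ libraries, beside 64.1 to 73.1 CPM in Kit- K5+ libraries. Mast cell genes stood at 29.98 to 72.2 CPM in Kit+ K5+ libraries, beside 26.9 to 35.01 CPM in Kit- K5+ libraries. Of 17 mesenchyme genes 1 was lower with the block, Postn, and of 17 leukocyte genes 0 were called. The mast cell proteases Tpsab1, Tpsb2 and Cma1 were called higher with the block alone. Cma1 had 5.17, 1.64 and 0 CPM in Kit+ K5+ libraries, against 0.625, 0 and 0 CPM in Kit- K5+ libraries (adjusted p = 0.0313 with the block, 0.448 without). With the block, 0 of the 3 were called without Kit- K5+ replicate 1. Near-identical tryptase copies may share reads, and Mcpt4 and Fcer1a of this list were at 0 in all 3 Kit+ K5+ libraries. Mast cells carry Kit, and their part in the other results was not tested. Skeletal muscle genes summed to 22.6 to 91.98 CPM in Kit+ K5+ libraries, beside 93.74 to 103.4 CPM in Kit- K5+ libraries, with Myod1 at 0 in all 6. Neuron genes summed to 5.165 to 6.94 CPM in Kit+ K5+ libraries, beside 3.57 to 15.9 CPM in Kit- K5+ libraries. Of 6 muscle genes tested 1 was lower with the block alone, Ttn, and of 10 neuron genes 1, Elavl4. Each list held 0 to 1 such calls with the block and 1 library left out. The stray signal expected for the exons of Ttn was 11.6, 3.49 and 20.2 CPM in the 3 Kit- K5+ libraries. After its subtraction the muscle list still held 1 gene called lower with the block. Endothelial genes summed to 49.9 to 73 CPM in Kit+ K5+ libraries, beside 61.8 to 108 CPM in Kit- K5+ libraries. Of 23 genes of dissociation stress and immediate early response 1 was higher with the block. This gene, Hsp90aa1, a cytosolic chaperone, had 208, 216 and 206 CPM in Kit+ K5+ libraries, against 90.8, 156 and 124 CPM in Kit- K5+ libraries (adjusted p = 0.0256 with the block). Without replicate 1 or 2 of Kit+ K5+, replicate 3 of Kit+ K5+ or replicate 1 of Kit- K5+ it was not called (highest adjusted p = 0.114). Xist, the RNA of the inactive X chromosome, had 703, 946 and 956 CPM in Kit+ K5+ libraries, against 1114, 1679 and 1670.2 CPM in Kit- K5+ libraries (log2 -0.77 ± 0.19, adjusted p = 0.0413 with the block). With 1 library left out this call was kept only without Kit- K5+ replicate 3 (highest adjusted p = 0.169). The labels do not give the sex of the embryos, and its part in Xist was not tested.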

How the data were processed

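The deposited table holds raw counts per gene for 43280 gene symbols in 12 libraries of sorted epithelial cells. Per the labels, single-end 50 nt reads were aligned with STAR 2.4.2a and the authors made the counts with featureCounts (1.4.6-p3 in the submitters' processing notes, which also list FastQC, Picard 1.129, Subread and GRCm38.p3). No source used here names the gene annotation or says whether counting used strand, so genes that overlap another gene, such as Myb, Egfr, Bop1, Cald1, Dst, E2f8, Fgfr2, Wnt5b and Xist, may share its reads. Venus was not analysed here.

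Genes were filtered with filterByExpr, scaled by TMM and tested with edgeR 4.0.16 (R 4.3.3, limma 3.58.1) by the quasi-likelihood F test in 1 fit of all 12 libraries with Benjamini-Hochberg adjustment over 17030 genes and a threshold of 0.05, after the scripts were tested on simulated data. Standard errors are the absolute log2 difference divided by the square root of F. The unblocked fit is the main one. A fit with the run of library numbers as a block is printed beside it. The labels give the library numbers but do not say that a run shares embryos or days. The deviations of K5+ libraries from their group means correlated at 0.156, 0.108 and 0.118 within runs, over the limit of 0.1 in each run. Between runs they correlated at -0.16 to 0.0374. Deviations from a group mean sum to 0, so the values between runs are not separate from those within runs. The numbers were taken to pair the samples in the blocked fit alone. Alternatives covered scaling, filters, DESeq2 1.42.0, limma-voom, thinning, the 6 libraries alone, runs or libraries left out and, added after seeing the data, subtraction of stray signal by exonic length.

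The comparison, its gene lists and the rule for naming genes were chosen with earlier results of these data known. Named were the sort and marker genes, up to 15 genes a direction by size of difference with no overlap and at least 10 CPM, once without and once with the block, up to 4 called members of each of the 43 lists (up to 2 where none passed), and the 5 smallest interaction p-values. Of the genes so named, 2 are not reported here. Depth was 5589037 to 13724364 counts per library. The genes Krt14, Trp63, Mki67, Myc, Cad, Shmt2, Slc7a5, Aqp5, Smr3a, Trpm5, Sox9, Sox10, Kitl, Itgb4, Acta2, Cdk1, Slc7a3 and Krt19 fall outside this rule and were chosen after their values were seen, as were 3 added lists. Positions are from GENCODE M21 (GRCm38), and promoters from RefSeq, GRCm38.p6. Depth limits low genes, and counts without molecular identifiers are not independent molecules.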

Additional observations from a re-analysis of the deposited data

Results flagged for a closer look

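These genes stand here because their Kit difference in K5+ cells differed from that in K5- cells in edgeR's interaction test without the block. The values are log2 differences in K5+ minus those in K5- cells. More positive or less negative in K5+ cells were Nr2f2 (3.787, adjusted p = 2.63e-05), Slitrk6 (6.498, 2.63e-05), Adamts12 (4.897, 2.99e-05), Chst2 (6.234, 2.99e-05), H19 (2.143, 0.00430), Postn (2.718, 0.00577), Pde9a (2.495, 0.0158), Cd44 (2.761, 0.0262), Hbb-bs (4.503, 0.0374) and Wisp1 (2.368, 0.0466). More negative or less positive in K5+ cells were Tfcp2l1 (-2.336, adjusted p = 0.00230), Dsc2 (-2.707, 0.00230), St14 (-1.798, 0.0131), Itgb6 (-2.754, 0.0266), Lama3 (-2.561, 0.0336) and Cdh1 (-1.578, 0.0341). Adamts12 had 17.4, 22.7 and 14.7 CPM in Kit+ K5+ libraries, against 20.1, 21.8 and 15.9 CPM in Kit- K5+ libraries, while Kit+ K5- libraries averaged 11.001 ± 2.92 CPM and Kit- K5- libraries 347 ± 125 CPM (SD, n = 3 each). Nr2f2 had 19.5, 26.2 and 20.7 CPM in Kit+ K5+ libraries, against 22.5, 34.1 and 28.5 CPM in Kit- K5+ libraries, and averaged 15.8 ± 1.93 CPM in Kit+ K5- libraries, set against 279 ± 15.3 CPM in Kit- K5- libraries (SD, n = 3 each). The mesenchyme genes of the Kit- K5- libraries, given above, stand beside these values, and their part was not tested. Of the genes in this section Postn, Dsc2, Chst2, St14, Nr2f2, Cdh1, Slitrk6, Adamts12 and Hbb-bs were not called in the unblocked K5+ comparison (adjusted p = 0.0597, 0.0777, 0.1097, 0.143, 0.374, 0.401, 0.775, 0.916 and 0.972), and with the block Postn, Dsc2 and St14 were.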

How the results depend on the processing

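With the run as a block, the Kit difference in K5+ cells called 788 genes instead of 112, and the interaction with K5- cells 1418 instead of 684. For the K5+ count, library totals gave 67, no filter 1212, DESeq2 1039, limma-voom 58, the 6 libraries alone 72 and with the block 188, subtraction of stray signal with the block 612, and the block without run 1, 2 or 3 gave 290, 17 and 234. Leaving out 1 library gave 4 to 240 without the block and, with it, 122, 231 and 360 without Kit+ K5+ replicate 1, 3 or 2 and 400, 460 and 641 without Kit- K5+ replicate 1, 2 or 3. The K5- count of 3624 became 5732 with 6 libraries and the block and 1980 with the block without run 2, and 2123 to 3754 with 1 library left out. The interaction count became 1960 with no filter, 1411 by DESeq2, 1096 and 214 with the block without run 1 or 2, and 370 to 729 with 1 library left out. Of the 43 genes named by rule and called, RLE scaling, DESeq2 and the block each kept 43, upper-quartile scaling 40, thinning 39, totals 30 and limma-voom 25. None of these 43 changed sign under the 35 alternatives run. Signs turned for 10 uncalled genes, and the cause was not tested. Hbb-bs was 0.124 by limma-voom, 0.0146 with no filter, 0.1849 with the block, 0.02445 in 6 libraries with the block, 0.152 after stray subtraction with the block, 0.537 and 0.581 with the block without run 1 or 3, -0.453 to 0.733 with 1 library left out and, with the block as well, 0.711 and 0.4635 without Kit+ K5+ replicate 1 or 3 and 0.190 and 0.484 without Kit- K5+ replicate 1 or 3. Adamts12 was 0.00593 with no filter, -0.242 to 0.0824 with 1 library left out and, with the block, 0.1315 without Kit+ K5+ replicate 1 and 0.00532 and 0.00379 without Kit- K5+ replicate 2 or 3. Cd68 was 0.00605 with no filter, 0.264 with the block without run 2, -0.230 to 0.371 with 1 library left out and, with the block, 0.0202 and 0.101 without Kit+ K5+ replicate 1 or 2 and 0.255 without Kit- K5+ replicate 2. With 1 library left out Bpifa2 ran over -0.825 to 7.35 and Slitrk6 over -0.0299 to 0.759, with -0.0612 for Slitrk6 with the block and without Kit- K5+ replicate 1. With the block, Ets1 was 0.0179 and Slitrk6 -0.0573 without run 1, Pecam1 -0.09585 and mt-Rnr2 0.0463 without run 2, and Ptprc 0.00150 without run 3. Mitf was 0.143, Pecam1 -0.0455 and Ptprc 0.0742 with the block and 1 library left out.

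The limits are 3 libraries a group, run numbers that the labels do not explain, and stray signal that was higher in Kit- K5+ libraries. Differences of a few CPM are the least certain. Low genes could not be told from background where Kit- K5+ levels were near the stray signal expected for their length.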

Other observations

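Among genes named by size of difference, several stood outside the lists above. Tagln2, an actin-binding transgelin, had 176, 157 and 72.999 CPM in Kit+ K5+ libraries, against 40.01, 42.999 and 35.4 CPM in Kit- K5+ libraries (log2 1.78 ± 0.35, adjusted p = 0.0407). Epb4.1l1, which links membrane proteins to the spectrin and actin skeleton, had 267, 147 and 102 CPM in Kit+ K5+ libraries, against 54.1, 53.99 and 34.1 CPM in Kit- K5+ libraries (log2 1.86 ± 0.34, adjusted p = 0.0363). Reep6, an endoplasmic reticulum membrane protein, had 56.9, 37.4 and 38.4 CPM in Kit+ K5+ libraries, against 11.6, 15.4 and 11.3 CPM in Kit- K5+ libraries (log2 1.79 ± 0.29, adjusted p = 0.0237). The groups of the 3 genes did not overlap. Atp2a3, a calcium pump of the endoplasmic reticulum, had 456, 185 and 102 CPM in Kit+ K5+ libraries, against 63.4, 46.4 and 15.1 CPM in Kit- K5+ libraries (log2 2.50 ± 0.26, adjusted p = 5.34e-04 with the block, 0.117 without). Shroom3, an organiser of apical actin, had 209, 83.6 and 32.04 CPM in Kit+ K5+ libraries, against 29.1, 19.8 and 22.6 CPM in Kit- K5+ libraries (log2 1.89 ± 0.35, adjusted p = 0.0126 with the block, 0.0818 without).

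On the lower side, Mgat3, the enzyme that adds bisecting N-acetylglucosamine to N-glycans, had 2.31, 3.57 and 2.71 CPM in Kit+ K5+ libraries, against 23.01, 18.3 and 12.8 CPM in Kit- K5+ libraries (log2 -2.65 ± 0.36, adjusted p = 0.0113). Cpe, carboxypeptidase E, a processing enzyme of prohormones, had 8.95, 9.16 and 6.59 CPM in Kit+ K5+ libraries, against 116, 38.9 and 17.2 CPM in Kit- K5+ libraries (log2 -2.80 ± 0.55, adjusted p = 0.0407). Its Kit- K5+ libraries spread widely, with replicate 1 the highest, while the Kit+ K5+ libraries were nearly alike. Sulf1, which removes sulfate groups from heparan sulfate outside the cell, had 2.12, 5.69 and 5.17 CPM in Kit+ K5+ libraries, against 22.6, 27.3 and 85.1 CPM in Kit- K5+ libraries (log2 -3.15 ± 0.36, adjusted p = 0.00116 with the block, 0.0514 without). Cryab, a small heat shock protein, had 4.98, 4.53 and 2.97 CPM in Kit+ K5+ libraries, against 83.5, 20.5 and 6.504 CPM in Kit- K5+ libraries (log2 -2.78 ± 0.57, adjusted p = 0.0207 with the block, 0.0537 without). No overlap between groups was a condition for naming the genes of these paragraphs.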
